A study of Mus musculus with 9 samples.

Results

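The response of the mouse lung to conidia, the spores by which the mould Aspergillus fumigatus is inhaled, was measured in 6 of the 9 whole-lung libraries of the series. They were the 3 libraries labelled conidia and the 3 labelled as control, taken by treatment label alone. All mice were C57BL/6, and all lungs were collected 24 hours after intratracheal inoculation. The control mice received normal saline by that route, so handling of the airway was common to both groups, and a further 3 libraries came from lungs given hyphal fragments, the broken filaments of the same fungus. The series title calls the mice immunocompetent. The number of spores, the fungal strain and the age and sex of the mice are not in the labels. Nor do they state that each library is a mouse of its own, so p-values measure the spread between these libraries, and part of it may be technical. Expression is given in FPKM, a gene's fragment count divided by transcript length and by the size of the library. Of 18984 genes in the files, 13572 reached 1 FPKM in at least 3 of the 6 libraries and were tested. A gene below 1 FPKM in all 3 saline libraries was tested only where all 3 conidia libraries reached 1 FPKM. The filter thus fixed the direction of such a gene, and its p-value is weaker support for a rise. Among the called genes named below these were Saa1, Tnf, Acod1, Cxcl5, Cxcr1 and Nlrp12.

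A spore that swells in the airway uncovers carbohydrates of its wall, which C-type lectin receptors of macrophages and neutrophils bind, passing the signal on through the adaptor CARD9. Epithelium and macrophages then secrete chemokines for the receptor CXCR2, neutrophils enter the airspace and kill the spores with oxidants and granule proteins, and interleukin 1, interleukin 6 and TNF induce acute phase proteins. These steps are background from other work. They give the order in which the measurements are described: receptors, messengers, acute phase proteins, neutrophil products, and then the transcripts of the resident lung.

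Summed FPKM of the 6 libraries ranged from 505792 to 561250, and the median log2 difference of all genes tested, conidia minus saline, was −0.07. Lung identity was plain in all of them, with Sftpc, a surfactant protein gene of type 2 cells, at 10141 to 24128 FPKM. Some libraries stood apart. Saline replicate 1 was high in transcripts of fat and heart (summed FPKM of 15 adipose genes 2228, against 203 and 457 in the other saline libraries, and of 14 cardiac genes 1819 against 536 and 618) and low in 6 erythroid genes (2321 against 6177 and 18470). Conidia replicate 2 was the weakest responder: of the 84 genes that passed as higher after conidia it was the lowest conidia library in 78, while replicate 1 was the highest in 56 and replicate 3 in 27. Over all 13572 genes tested replicate 2 was the lowest in 3127, replicate 1 the highest in 2979 and replicate 3 in 3739. The median gene of the 84 stood 1.77-fold higher in conidia replicate 1 than in conidia replicate 2.

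The comparison of conidia with saline asked which lung transcripts differed 1 day after spores had reached the airway. In limma's moderated test on log2(FPKM + 1), 99 of 13572 genes differed at an adjusted p under 0.05 (0.729%). Of these 84 were higher after conidia (0.619%) and 15 lower (0.111%), and 76 differed at least 2-fold (0.560%), 70 of them upward and 6 downward. The counts of called genes per list given below are to be read beside these shares. With so few calls, a list that holds none says little about its members. The called rises were large and the called falls small: the largest rise on the log2 scale was 6.52 (Saa3) and the largest called fall −1.41 (Cbr2). The lowest log2 difference of all genes tested, −2.60, was not called. Adjusted p-values of the 99 lay between 0.0232 and 0.0499, close to the threshold. After the libraries were rescaled to a common median of ratios 45 of the 99 passed, and the other 54 had adjusted p-values from 0.051 to 0.0698. The number of calls also hung on which libraries entered. Limma gave 0 without saline replicate 1, 2 or 3 or without conidia replicate 3 (1994, 1987, 2622 and 1863 genes had an unadjusted p under 0.05), and 1 without conidia replicate 1 (Timp1). It was 1552 without conidia replicate 2, of which 655 were higher and 897 lower, so the balance of directions turned, as it did with array weights, which down-weight uneven libraries (4981 calls, 1875 higher and 3106 lower). It was 268 without hyphae replicate 1 and 7 without hyphae replicate 2, the hyphae libraries sharing in the estimate of the spread. With the 6 saline and conidia libraries alone limma called 137 genes (121 higher, 16 lower), 63 of them among the 99. Some called genes given below did not pass there, at adjusted p-values from 0.06 to 0.0772. They were Orm1, Ccl20, Il18bp, Tnfrsf1a, Noxo1, F10, Fkbp5, Xbp1, Thbs3, Wif1, Fam198a, Slc23a2, Pdgfa and Sms. No gene among the 99 changed direction in any of these fits.

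**Figure D1:**
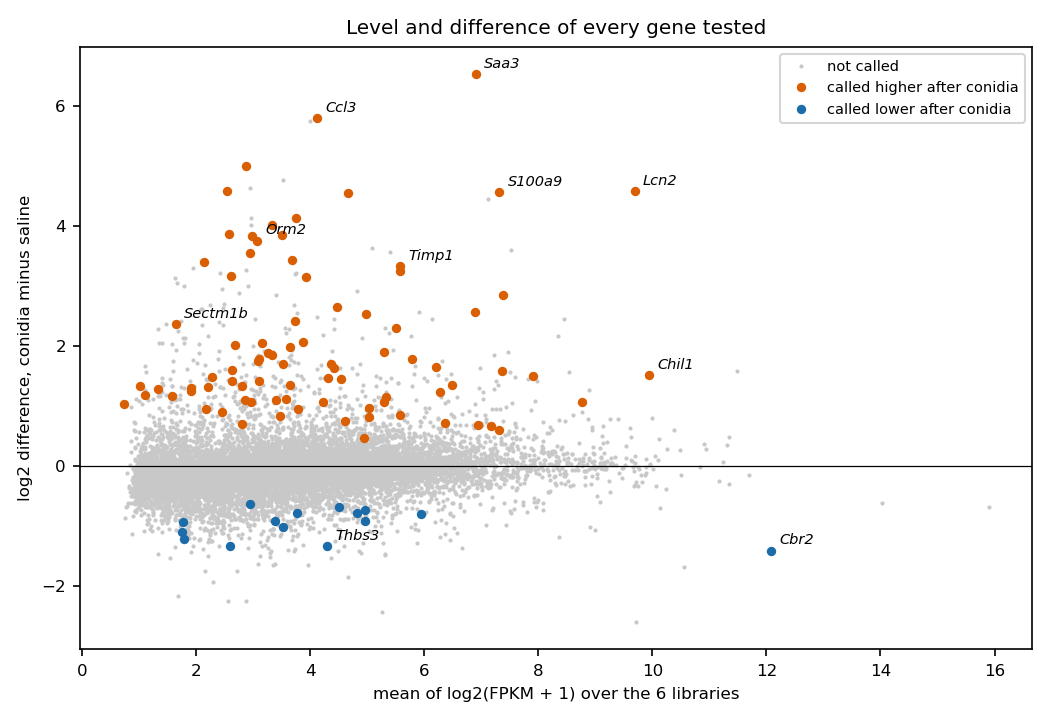
Mean log2(FPKM + 1) over the 6 saline and conidia libraries (horizontal axis) against the log2 difference, conidia minus saline (vertical axis), for the 13572 genes tested, 1 point per gene. The 84 called higher (orange) reach 6.52 for Saa3, whereas the 15 called lower (blue) lie between −0.63 and −1.41, and many genes with differences as large as called ones are not called.

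Among the surface receptors that bind fungi, 3 C-type lectin receptors rose and dectin-1 did not pass. Clec4e (mincle, a receptor for fungal and mycobacterial glycolipids) was at 1.30, 1.10 and 0.92 FPKM in saline replicates 1 to 3 and at 59.7, 14.5 and 26.99 in conidia replicates 1 to 3. Clec4d, a related receptor that pairs with mincle, went from 2.22, 1.66 and 2.19 to 79.5, 17.8 and 52.1 FPKM, and Clec4n (dectin-2, which binds fungal mannans) from 3.84, 4.16 and 4.96 to 24.1, 14.7 and 16.2 FPKM. In each of the 3 genes the lowest conidia library lay above the highest saline library, and the saline libraries were close together. The log2 differences were 3.82 (SE 0.60, adjusted p = 0.0406) for Clec4e, 3.84 (SE 0.65, adjusted p = 0.0458) for Clec4d and 1.84 (SE 0.25, adjusted p = 0.0232) for Clec4n. Clec7a (dectin-1, the receptor for beta-glucan) had 9.50, 13.6 and 13.3 FPKM after saline and 26.8, 30.6 and 15.5 after conidia, and its log2 difference of 0.91 (SE 0.43) had an adjusted p of 0.259. Conidia replicate 2, the lowest conidia library for the 3 genes that rose, was the highest for Clec7a. Those 3 were the called genes among 14 fungal recognition receptors tested, whose median log2 difference was 1.10, and 10 of the 14 had all conidia libraries above all saline libraries, against 12.0% of all genes tested. Of the 3, Clec4n alone passed after rescaling. None of 23 genes of CARD9 and Toll-like receptor signalling passed (median 0.41), with Tlr6, which pairs with Tlr2, at 0.50, 0.70 and 0.83 and 3.26, 2.19 and 3.25 FPKM (adjusted p = 0.0758; 0.0391 with the 6 libraries alone) and the adaptor Myd88 at 22.01, 26.9 and 25.7 and 58.4, 37.4 and 50.2 (adjusted p = 0.0848).

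Among the messengers that call neutrophils the epithelial chemokine Cxcl5 rose, and Cxcl2 and Cxcl1, with larger log2 differences, did not pass. Cxcl5, a CXCR2 ligand made by lung epithelium, was at 0.58, 0.10 and 0.42 FPKM after saline and 27.7, 10.3 and 7.91 after conidia, a log2 rise of 3.40 (SE 0.43, adjusted p = 0.0232). Cxcl2, a ligand made mainly by myeloid cells, was at 1.31, 0.35 and 2.33 and 486, 23.2 and 134 FPKM. Cxcl1, a further ligand, was at 1.78, 0.34 and 0.96 and 107, 10.2 and 24.2. No saline library reached any conidia library in these 3 genes, but Cxcl2 spanned 23.2 to 486 FPKM among conidia libraries, and neither Cxcl2 (log2 difference 5.74, adjusted p = 0.0568) nor Cxcl1 (4.01, adjusted p = 0.0579) passed. The receptor Cxcr1 rose from 0.20, 0.46 and 0.68 to 1.99, 2.14 and 2.62 FPKM (log2 1.18, adjusted p = 0.0232), so 2 of 9 genes of the CXCR2 group rose, with a median log2 difference of 1.73, and both also passed after rescaling. Cxcl5 and Cxcr1 were both below 1 FPKM in every saline library and were tested only through the conidia libraries. Ppbp, the platelet member of the ligand family, was at 17.8, 24.3 and 31.6 and 9.46, 26.9 and 8.84 FPKM, with overlapping groups.

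Of 17 CC chemokines tested, 2 rose. Ccl3, a chemokine made by macrophages and neutrophils, was nearly constant after saline (1.30, 1.33 and 1.36 FPKM) and stood at 403, 33.3 and 155 FPKM after conidia (log2 5.79, SE 1.02, adjusted p = 0.0469). Ccl20, the CCR6 ligand of mucosal epithelium, rose from 2.43, 0.21 and 2.77 to 129, 17.5 and 26.3 FPKM (log2 4.01, SE 0.69, adjusted p = 0.0458). Conidia replicate 1 was the highest library for both. Ccl2, which draws CCR2-bearing monocytes, was at 1.35, 1.57 and 0.27 and 23.8, 9.04 and 13.04 FPKM without passing (adjusted p = 0.0769; 0.0391 with the 6 libraries alone). Neither Ccl3 nor Ccl20 passed after rescaling (adjusted p = 0.062 and 0.0573).

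Among interleukin 1 genes 2 antagonists rose. Il1rn, the antagonist that blocks the interleukin 1 receptor, rose from 2.07, 1.85 and 2.73 to 149, 23.4 and 47.4 FPKM (log2 4.13, SE 0.62, adjusted p = 0.0344), whereas the ligand Il1b, at 10.7, 9.04 and 6.53 and 298, 56.5 and 97.1 FPKM (log2 difference 3.63), had an adjusted p of 0.0849 (0.0437 with the 6 libraries alone). Il18bp, which neutralises interleukin 18, rose from 7.95, 7.06 and 6.89 to 15.7, 10.7 and 15.6 FPKM (log2 0.84, adjusted p = 0.0458; 0.0693 with the 6 libraries alone). With those 6 libraries, then, Il1b passed and Il18bp did not. They were 2 of 13 genes tested, and neither passed after rescaling. Tnf rose from 0.57, 0.49 and 0.64 to 47.5, 7.84 and 26.1 FPKM (log2 3.85, SE 0.61, adjusted p = 0.0406), and Tnfrsf1a, its widely expressed receptor, from 61.05, 64.5 and 63.3 to 117, 86.97 and 110.1 (log2 0.71, adjusted p = 0.0458). They were 2 of 21 TNF superfamily genes, of which the median was 0.16. Il6 was at 0.94, 0.33 and 0.15 and 18.5, 3.27 and 4.42 FPKM (adjusted p = 0.115) and Csf3, the granulocyte growth factor G-CSF, at 0.10, 0.12 and 0.08 and 34.95, 1.87 and 6.24 FPKM (adjusted p = 0.114). In Il6 and Csf3 conidia replicate 1 was several times the other conidia libraries. Jak3, a kinase of cytokine receptors, was the called gene of 21 on the interleukin 6 and STAT3 list, with 17.1, 18.2 and 18.4 and 31.6, 27.6 and 33.5 FPKM (log2 0.75, SE 0.10, adjusted p = 0.0232). Il17a and Ifng were not tested, since too few of the 6 libraries reached 1 FPKM: Il17a was listed at 0.05, 0 and 0 and 1.56, 0.59 and 0.14 FPKM and Ifng at 0.05, 0.27 and 0.09 and 0.04, 0.70 and 0.

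None of 21 NF-kB factors and inhibitors passed, although 15 of them had all conidia libraries above all saline libraries (12.0% of all genes did) and their median log2 difference was 1.02. Tnfaip2, a target of TNF, was at 9.81, 10.1 and 9.66 and 71.3, 27.4 and 31.5 FPKM (adjusted p = 0.0532), and Bcl3, a nuclear cofactor of NF-kB, at 13.4, 17.4 and 12.3 and 63.5, 30.7 and 49.4 (adjusted p = 0.0652; 0.0497 with the 6 libraries alone). In both the lowest conidia library lay above the highest saline library. The median deviation of the list from the saline mean was 1.72 in conidia replicate 1, 0.44 in replicate 2 and 0.95 in replicate 3. AP-1, EGR and NR4A factors, 20 genes with no call, had a median of 0.10.

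Acute phase proteins, which the liver and inflamed tissues secrete, held the largest log2 difference of all genes tested. Saa3 (Entrez 20210), a serum amyloid A protein made locally in inflamed tissue, was at 23.9, 3.19 and 17.9 FPKM in saline replicates 1 to 3 and at 2722, 503 and 1109.6 FPKM in conidia replicates 1 to 3. Its log2 rise was 6.52 (SE 0.75, adjusted p = 0.0232). Saa1 rose from 0.29, 0.09 and 0.22 to 62.6, 7.02 and 44.3 FPKM (log2 4.57, SE 0.66, adjusted p = 0.0328). Saa2 was at 0.19, 0.09 and 0.42 and 25.7, 1.33 and 26.8 FPKM, conidia replicate 2 lying barely above saline. It did not pass (adjusted p = 0.0902). Saa1 and Saa2 are near-identical, as are the orosomucoid genes to each other, and the labels do not state how reads were shared between such copies. Lcn2 (lipocalin 2, Entrez 16819), which binds bacterial siderophores and is made by epithelium and neutrophils, was already at 177, 125 and 217 FPKM after saline and reached 9457, 1197 and 5786 FPKM, a log2 rise of 4.57 (SE 0.74, adjusted p = 0.043). In Saa3 and Lcn2 even the lowest conidia library stood several times above the highest saline library.

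The orosomucoids, plasma carrier proteins, and the serpins followed. Orm1 rose from 8.56, 0.95 and 6.79 to 266, 47.3 and 143 FPKM (log2 4.55, adjusted p = 0.0458) and Orm2 from 1.67, 0.19 and 2.75 to 45.7, 19.3 and 29.7 FPKM (log2 3.75, SE 0.42, adjusted p = 0.0232). In saline replicate 2 the 5 serum amyloid and orosomucoid genes named here were lower than in the other saline libraries. Serpina3n, an inhibitor of serine proteases, rose from 81.6, 47.2 and 59.5 to 727, 228 and 535 FPKM (log2 2.85, adjusted p = 0.0232), and its family member Serpina3m from 1.92, 1.10 and 0.88 to 50.4, 8.98 and 35.2 (log2 3.55, adjusted p = 0.0328). Lrg1, a leucine-rich glycoprotein of inflamed vessels and neutrophil granules, rose from 44.5, 55.9 and 43.3 to 412, 151 and 373 FPKM (log2 2.56, adjusted p = 0.0232). In all 8 of 20 acute phase genes rose, 6 of them also after rescaling. The median of the 20 was 2.40, the lowest member was Hp at 0.44, and 19 had all conidia above all saline libraries (12.0% of all genes did). Lbp, which presents lipopolysaccharide to its receptor, narrowly missed with 28.9, 26.4 and 33.3 and 65.3, 52.98 and 58.5 FPKM (log2 difference 0.97, adjusted p = 0.0504; 0.0391 with the 6 libraries alone). Wfdc17, a small secreted protein with an antiprotease fold, rose from 20.7, 10.1 and 14.6 to 294, 81.9 and 128 FPKM (log2 3.24, adjusted p = 0.0328), which with Serpina3n made 2 of 13 antiproteases.

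**Figure D2:**
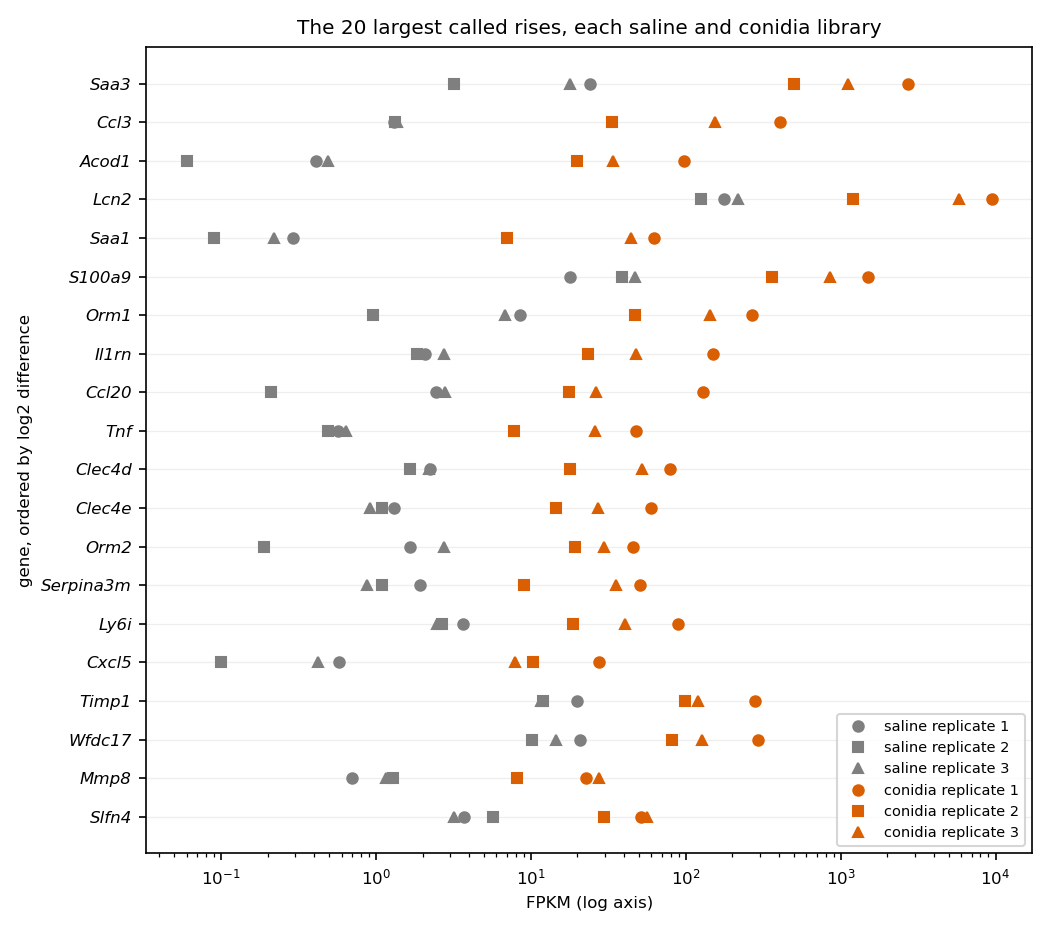
FPKM (log axis) of the 20 largest called rises in each saline (grey) and conidia (orange) library, with the replicate number given by the symbol. In every row the 3 conidia libraries lie above the 3 saline libraries, and replicate 2 (square) is the lowest conidia library in all rows but Cxcl5.

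C/EBP factors are background knowledge as activators of acute phase genes, and the bases before the start sites of these genes were therefore read from RefSeq windows of mouse build GRCm38.p6 (250 bases before to 50 after each start). The search covered both strands. The letters TTNNGCAA, the core that C/EBP proteins prefer, were in 7 of the 18 windows found for 16 of the 20 genes with the largest rises (38.9%). They were in 16.7% of 84 windows of all genes called higher, in 8.87% of 13748 windows of all genes tested and in none of 12 windows of the 10 largest falls. The AP-1 letters TGANTCA were in 16.7% of the 18 windows and 5.57% of those of all genes tested, and the kappa B consensus in 5.56% and 5.36%. A match is only a run of letters and says nothing of a factor's binding. The windows of the serum amyloid genes, of Orm2, of Lcn2 and of S100a9 are shown because each holds a TTNNGCAA match and belongs to an acute phase or neutrophil gene described here. Saa2 is among them as a near copy of Saa1 and was not itself called. The windows of Clec4e and Mmp8 also held a match and are not shown. Each sequence is the 250 bases before the start, 5′ to 3′ on the gene's own strand, with the TTNNGCAA match on either strand in capitals.
Saa3, chr7:46715677-46715926 (minus strand): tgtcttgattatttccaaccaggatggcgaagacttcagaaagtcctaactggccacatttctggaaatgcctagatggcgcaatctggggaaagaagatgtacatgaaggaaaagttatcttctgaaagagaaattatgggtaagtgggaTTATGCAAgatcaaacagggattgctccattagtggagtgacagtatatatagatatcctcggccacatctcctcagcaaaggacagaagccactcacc
Saa1, chr7:46742981-46743230 (minus strand): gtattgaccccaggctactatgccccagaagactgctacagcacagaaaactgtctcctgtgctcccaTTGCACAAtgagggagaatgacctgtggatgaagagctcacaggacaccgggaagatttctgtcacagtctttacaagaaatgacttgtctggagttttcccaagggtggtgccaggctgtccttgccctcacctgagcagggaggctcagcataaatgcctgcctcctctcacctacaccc
Saa2, chr7:46751583-46751832 (plus strand): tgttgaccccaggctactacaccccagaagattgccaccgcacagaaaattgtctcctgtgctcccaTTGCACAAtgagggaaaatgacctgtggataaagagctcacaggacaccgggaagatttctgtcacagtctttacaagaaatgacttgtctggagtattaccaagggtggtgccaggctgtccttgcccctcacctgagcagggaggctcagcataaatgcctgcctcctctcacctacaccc
Orm2, chr4:63362199-63362448 (plus strand): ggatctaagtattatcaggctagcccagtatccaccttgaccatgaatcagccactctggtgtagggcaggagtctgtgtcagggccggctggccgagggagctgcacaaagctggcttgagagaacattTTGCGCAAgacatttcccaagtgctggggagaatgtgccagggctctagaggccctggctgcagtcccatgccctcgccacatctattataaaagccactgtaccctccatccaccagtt
Lcn2, chr2:32387740-32387989 (minus strand): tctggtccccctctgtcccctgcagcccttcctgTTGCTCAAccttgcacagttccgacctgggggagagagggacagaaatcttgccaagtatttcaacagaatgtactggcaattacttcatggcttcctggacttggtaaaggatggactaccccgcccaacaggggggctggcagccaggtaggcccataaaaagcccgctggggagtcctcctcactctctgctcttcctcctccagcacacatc
S100a9, chr3:90695722-90695971 (minus strand): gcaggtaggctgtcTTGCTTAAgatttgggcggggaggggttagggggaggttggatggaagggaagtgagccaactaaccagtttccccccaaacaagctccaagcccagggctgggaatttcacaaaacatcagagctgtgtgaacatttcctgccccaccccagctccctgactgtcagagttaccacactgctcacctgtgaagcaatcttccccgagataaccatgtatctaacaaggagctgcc
The match of Saa3 spans bases −99 to −92 from the start, that of Orm2 −120 to −113, that of Saa1 −182 to −175 and that of Saa2 −183 to −176. Clec4e (−66 to −59) and Mmp8 (−19 to −12) held the other matches of the 20. A glucocorticoid response element, sought as its inverted repeat with 3 free bases between the arms, was in none of the 18 windows. It was in 4 of the 84 windows of all genes called higher (4.76%), which belong to 3 genes, against 0.313% of the windows of all genes tested.

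Most neutrophil markers were higher in every conidia library than in any saline library, and 6 of them passed. S100a9 (Entrez 20202), a subunit of calprotectin and one of the most abundant neutrophil proteins, rose from 17.8, 38.6 and 46.8 to 1499.5, 359 and 848 FPKM (log2 4.55, SE 0.79, adjusted p = 0.0458), and its partner S100a8, at 17.5, 31.7 and 42.1 and 1144, 271 and 862 FPKM, missed with an adjusted p of 0.0509 (0.0391 with the 6 libraries alone). Csf3r, the receptor for G-CSF on neutrophils, rose from 17.3, 24.5 and 17.5 to 103, 88.5 and 108 FPKM (log2 2.29, SE 0.38, adjusted p = 0.0453), with conidia libraries far closer to each other than for the chemokines. Ly6g, the surface protein by which mouse neutrophils are recognised, was at 0, 0.24 and 0.49 and 6.39, 3.53 and 6.51 FPKM (adjusted p = 0.0912). With the 6 libraries alone Ly6g passed (adjusted p = 0.0334). In all 6 of 23 neutrophil markers rose (S100a9, Csf3r, Cxcr1, Clec4d, Lrg1 and Mmp8), 2 of them also after rescaling. Of the 23, 20 had all conidia libraries above all saline libraries (12.0% of all genes did), 1 had all below (17.8% of all genes did), and the median log2 difference was 2.56. Their summed FPKM was 238 to 328 in saline and 1172 to 4011 in conidia libraries. In bulk tissue fewer or more cells of a type cannot be told from less or more RNA per cell.

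Granule proteins, which neutrophils make in a fixed order while they mature in the marrow, are given here by stage. Of 9 listed proteins of the first, azurophil, granules 2 were tested, the lysozymes Lyz1 and Lyz2, and neither passed (adjusted p = 0.162 and 0.716). Lyz1 is also on the list of alveolar type 2 markers. Mpo and Elane were not tested, since too few of the 6 libraries reached 1 FPKM. Mpo, which makes hypochlorous acid, was at 0, 0.02 and 0.08 and 0.06, 0.04 and 0.02 FPKM, and Elane, neutrophil elastase, at 0.25, 0 and 0.18 and 0, 0.18 and 0.06, so both stayed at or below 0.25 FPKM in every saline and conidia library. Of 13 proteins of the later specific and gelatinase granules, Lcn2 and Mmp8 rose. Mmp8, the neutrophil collagenase, went from 0.70, 1.29 and 1.16 to 22.7, 8.10 and 27.4 FPKM (log2 3.17, SE 0.53, adjusted p = 0.0458). Ngp, a specific granule protein, was at 1.12, 1.17 and 1.84 and 45.1, 4.72 and 42.8 FPKM (adjusted p = 0.133), with conidia replicate 2 near saline. Camp, the cathelicidin, was at 0.68, 0.75 and 1.29 and 1.44, 1.83 and 2.40 FPKM (adjusted p = 0.719) and Ltf, lactoferrin, at 63.7, 19.5 and 19.8 and 38.3, 41.9 and 44.2 (adjusted p = 0.684), where saline replicate 1 exceeded all 3 conidia libraries.

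Further myeloid receptors and enzymes rose. Acod1, the enzyme that makes itaconate in activated macrophages and neutrophils, went from 0.41, 0.06 and 0.49 to 97.5, 19.98 and 33.8 FPKM (log2 4.99, SE 0.84, adjusted p = 0.0458). Nos2, inducible nitric oxide synthase, was at 1.73, 2.26 and 1.89 and 7.38, 2.54 and 2.12 FPKM, conidia replicate 1 well above the saline range and replicate 2 just above it (adjusted p = 0.303). Ly6i, a Ly6 surface protein whose family has similar copies, rose from 3.63, 2.67 and 2.47 to 89.7, 18.7 and 40.5 FPKM (log2 3.43, adjusted p = 0.0232), and Slfn4, a schlafen of myeloid cells, from 3.68, 5.71 and 3.20 to 51.3, 29.7 and 55.8 (log2 3.15, adjusted p = 0.043). Slfn4 was highest in conidia replicate 3, Acod1 and Ly6i in conidia replicate 1. Several inhibitory receptors of myeloid cells also rose, named after their values had been seen: Siglece from 2.99, 3.66 and 3.54 to 23.8, 10.4 and 20.2 FPKM (log2 2.05, adjusted p = 0.0232), Pirb from 11.2, 14.5 and 8.71 to 39.7, 27.6 and 45.2 (log2 1.62, adjusted p = 0.0458) and Cd300lf from 7.44, 7.99 and 8.10 to 84.1, 29.4 and 63.3 (log2 2.64, adjusted p = 0.0382). Of these 3, Siglece also passed after rescaling. Nlrp12, a regulator of inflammatory signalling chosen in the same way, went from 0.13, 0.21 and 0.14 to 1.14, 1.44 and 1.57 FPKM (log2 1.03, adjusted p = 0.0232). It was tested only because the conidia libraries reached 1 FPKM.

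Among markers of monocytes and recruited macrophages 2 rose. Spp1 (osteopontin, a secreted matrix glycoprotein) rose from 30.1, 23 and 34.5 to 124, 64.8 and 131 FPKM (log2 1.78, SE 0.26, adjusted p = 0.0328) and F10, coagulation factor X, from 2.07, 2.06 and 2.48 to 20.03, 5.68 and 14.3 (log2 2.01, adjusted p = 0.0458). These were 2 of 19, with a list median of 0.68. None of 18 alveolar macrophage markers passed (median 0.20), and Siglecf, a surface marker of those cells and of eosinophils, was at 2.12, 2.68 and 2.97 and 1.08, 2.61 and 1.38 FPKM (adjusted p = 0.295). NADPH oxidase genes gave 2 calls of 10: Cyba, the membrane subunit shared by several oxidases, rose from 113, 109 and 118 to 194, 162 and 188 FPKM (log2 0.67, adjusted p = 0.0458), and Noxo1, the organiser of the epithelial oxidase NOX1, from 7.13, 5.27 and 4.03 to 40.5, 14.1 and 23.8 (log2 1.97, adjusted p = 0.0458).

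Matrix, lipid, iron and stress hormone genes made up a further group of rises. Timp1, the inhibitor of matrix metalloproteinases, was at 19.9, 11.9 and 11.6 FPKM after saline and 281, 98.7 and 120.4 after conidia (log2 3.33, SE 0.37, adjusted p = 0.0232), and was the gene that still passed without conidia replicate 1 (log2 2.87, adjusted p = 0.042). Mmp3, stromelysin, rose from 13.8, 9.43 and 10.4 to 45.2, 24.4 and 30.1 FPKM (log2 1.46, adjusted p = 0.0406), so that with Mmp8 there were 3 of 18 matrix proteases and inhibitors. Chil1, a chitinase-like protein that does not cut chitin, was abundant throughout, with 567, 564 and 627 FPKM after saline and 2332, 1259.9 and 1576 after conidia (log2 1.51, SE 0.20, adjusted p = 0.0232). It was the called gene among 5 chitinases and chitinase-like proteins and among 18 alveolar type 2 markers. Pla2g7, which breaks down platelet-activating factor, rose from 10.7, 12.04 and 8.84 to 37.95, 27.9 and 44.8 FPKM (log2 1.70, adjusted p = 0.0232). Slc40a1, the iron exporter ferroportin, went up from 2.92, 3.13 and 2.97 to 5.55, 6.32 and 7.57 FPKM (log2 0.89, adjusted p = 0.0444) and was with Lcn2 among the 2 of 20 iron genes that rose.

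Of 17 glucocorticoid targets 3 rose, 2 of them also after rescaling, and the list median was 0.85. Angptl4, an inhibitor of lipoprotein lipase, went from 8.09, 17.5 and 12.3 to 95.8, 46.4 and 92.6 FPKM (log2 2.53, adjusted p = 0.0232), Map3k6 from 6.66, 4.55 and 7.60 to 36.4, 16.6 and 39.7 (log2 2.07, adjusted p = 0.0323) and Fkbp5, a chaperone of the glucocorticoid receptor, from 6.55, 3.38 and 4.77 to 42.8, 13.6 and 44.5 (log2 2.42, adjusted p = 0.0458). Conidia replicates 1 and 3 were alike for these genes and replicate 2 lay between them and saline. Mt2, a metallothionein that binds zinc, was at 79.7, 29.7 and 58.6 and 1397, 229 and 795 FPKM (log2 difference 3.59, adjusted p = 0.0532). Gsr, glutathione reductase, was the called gene of 25 oxidative stress genes (28.7, 24.3 and 26.1 and 62.2, 43.9 and 64.2 FPKM, log2 1.06, adjusted p = 0.0406), and Xbp1, a transcription factor of the unfolded protein response, that of 23 heat shock and unfolded protein genes (97.3, 99.5 and 91.9 and 186, 138 and 143 FPKM, log2 0.68, adjusted p = 0.0458).

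Of the interferon lists each gave 1 call, and by list median conidia replicate 2 was not the weakest library there. Zbp1, a sensor of Z-form nucleic acid, rose from 7.39, 7.15 and 6.14 to 19.4, 17.3 and 20.7 FPKM (log2 1.35, SE 0.17, adjusted p = 0.0232) as 1 of 26 type I interferon stimulated genes. Tgtp1, an interferon-inducible GTPase with a near-identical neighbour, rose from 3.79, 3.54 and 4.70 to 23.6, 13.8 and 16.1 FPKM (log2 1.88, adjusted p = 0.0232) as 1 of 18 genes of the interferon-gamma list. List medians were 0.39 and 0.35, and the deviation of the type I list from saline was 0.26, 0.43 and 0.46 in conidia replicates 1 to 3. Cxcl10, the interferon-induced ligand of CXCR3, was at 5.12, 3.76 and 3.80 and 29.6, 40.1 and 27.8 FPKM with conidia replicate 2 the highest of the 6. It did not pass (adjusted p = 0.0568) but did with the 6 libraries alone, at the smallest adjusted p of that fit (0.0113). Named after their values were seen, Ifitm1 (114, 68.1 and 107 and 331, 257 and 266 FPKM, log2 1.57, adjusted p = 0.0232) and Tmem173, which encodes the DNA-sensing adaptor STING (13.1, 12.1 and 10.8 and 32.3, 23.1 and 23.6 FPKM, log2 1.06, adjusted p = 0.0232), also rose.

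The 15 falls were led by Cbr2, a carbonyl reductase abundant in club cells of the airway. It was at 8451, 6955 and 6079.8 FPKM in saline replicates 1 to 3 and at 2238, 3628 and 2329 in conidia replicates 1 to 3 (log2 −1.41, SE 0.25, adjusted p = 0.0458; 0.0439 after rescaling). Conidia replicate 1 was the lowest conidia library in 14 of the 15 falls and tied with replicate 3 in Sms, named after its values had been seen, and conidia replicate 2 was the highest conidia library in 14. The same order was common over all 13572 genes tested, with replicate 1 the lowest in 7395 and replicate 2 the highest in 6854. Thbs3, a matrix thrombospondin, fell from 26.7, 34.05 and 30.3 to 7.98, 16.9 and 10.9 FPKM (log2 −1.33, adjusted p = 0.0458), and Wif1, a secreted inhibitor of Wnt proteins, from 5.22, 4.13 and 3.64 to 0.85, 2.22 and 0.99 (log2 −1.21, adjusted p = 0.0499). Pdgfa, a growth factor for mesenchymal cells, fell from 75.3, 86.8 and 79.6 to 39.3, 58.03 and 42.4 FPKM (log2 −0.80, adjusted p = 0.0458), and Slc23a2, a vitamin C transporter, from 48.1, 40.8 and 37.7 to 18.9, 27.3 and 19.7 (log2 −0.92, adjusted p = 0.0458). Also among the 10 largest falls were Rec8 (a cohesin subunit of meiosis, log2 −1.33), Plekhd1 (−1.02), Fam198a (−0.94) and Gm14325 (−0.93), with adjusted p-values of 0.0458, 0.0458, 0.0499 and 0.0444. Tmprss2, an epithelial serine protease named after its values had been seen, fell from 35.8, 36.4 and 35.8 to 17.5, 23.3 and 20.7 FPKM (log2 −0.79, adjusted p = 0.043).

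**Figure D3:**
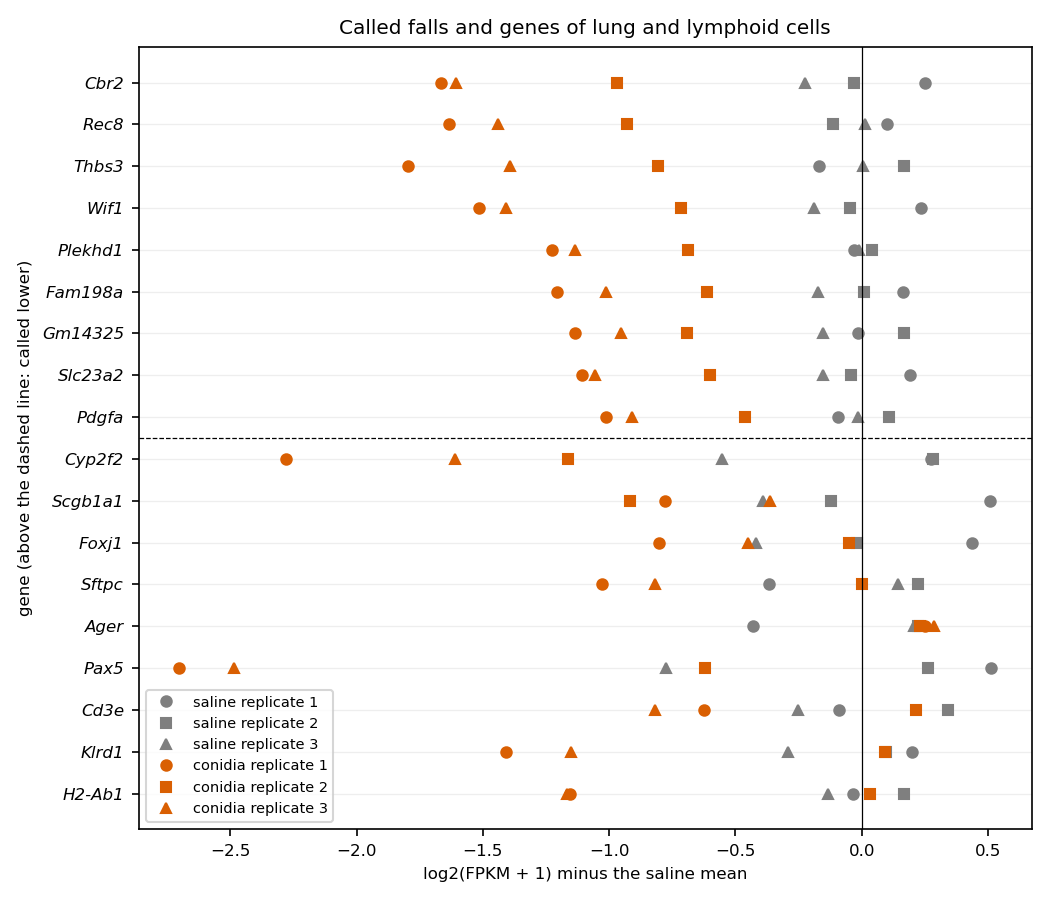
Log2(FPKM + 1) minus the saline mean in each saline (grey) and conidia (orange) library, with the replicate number given by the symbol, for 9 of the 10 largest called falls (above the dashed line) and 9 genes of airway, alveolar and lymphoid cells. For the falls replicate 2 (square) is the conidia library nearest to saline, and for Pax5, Cd3e, Klrd1 and H2-Ab1 it overlaps or nearly reaches the saline libraries while replicates 1 and 3 lie below them.

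Most other airway epithelial markers on the lists had negative log2 differences without passing. Cbr2 was the called gene of 17 club and goblet cell markers, whose median was −0.75, and 8 of the 17 had all conidia below all saline libraries (17.8% of all genes did). Of the 17, 13 had a negative log2 difference and 4 a positive one. They ranged from −2.60, the lowest of all genes tested, to 1.41. Cyp2f2, a cytochrome P450 of club cells, was at 3276, 3295 and 1846 and 557, 1208 and 888 FPKM (log2 difference −1.69, adjusted p = 0.0801). Scgb1a1, the secretoglobin that club cells release in bulk, was at 110355, 71321 and 59121 and 45216, 40998 and 60182 FPKM (log2 difference −0.69, adjusted p = 0.157), with saline replicate 1 highest and saline replicate 3 below conidia replicate 3. None of 21 ciliated cell markers passed (median −0.67). All 21 had a negative log2 difference, and 5 had all conidia below all saline libraries, against 17.8% of all genes tested. Foxj1, the master factor of motile cilia, was at 114, 83.02 and 62.5 and 47.7, 81.1 and 61.2 FPKM with overlapping groups (adjusted p = 0.556), and Tppp3 at 509.6, 559 and 425 and 148, 326 and 212 (adjusted p = 0.0672). Saline replicate 1 was also the highest library for both marker lists, at 0.37 above the saline mean by list median. Cyp1a1, the target enzyme of the aryl hydrocarbon receptor, was at 11.8, 15.7 and 28.3 and 3.78, 5.90 and 5.33 FPKM (log2 difference −1.64, adjusted p = 0.0568).

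Alveolar and vascular marker lists had medians near 0. Of 16 alveolar type 1 markers none passed (median 0.16), and Ager, their most abundant marker, was at 975, 1535 and 1519.8 and 1564, 1543 and 1606 FPKM (adjusted p = 0.399). Sftpc was at 16041, 24128 and 22872 and 10141, 20700.1 and 11738 FPKM with overlapping groups (adjusted p = 0.223). None of 22 endothelial markers passed (median 0.11), with Pecam1 at 124, 193 and 193 and 206, 207 and 199 FPKM (adjusted p = 0.325), and none of 19 fibroblast markers did (median −0.35).

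No B, T or NK cell marker and no MHC class II gene on the lists passed, where 0.111% of all genes tested were called lower. By list median conidia replicates 1 and 3 lay below the saline libraries there. Conidia replicate 2 lay with the saline libraries, or above them for NK cell markers. The 19 MHC class I and immunoproteasome genes, also without a call, had medians of 0.12, 0.10 and 0.14 in conidia replicates 1 to 3. Pax5, the B cell identity factor, was at 12.7, 10.5 and 4.59 FPKM after saline, and after conidia at 0.47, 5.23 and 0.71 in replicates 1 to 3 (log2 difference −1.94, SE 0.55, adjusted p = 0.115). Conidia replicate 2 lay within the saline range, and conidia replicates 1 and 3 below it. None of 16 B cell markers passed, with list medians, relative to the saline mean, of −1.51, −0.06 and −1.45 in conidia replicates 1 to 3. Conidia replicate 2 was likewise the nearest to saline, with replicates 1 and 3 lower, for 12 NK cell markers (−1.08, 0.36 and −1.05), 15 T cell markers (−0.81, 0.12 and −0.87) and 13 MHC class II genes (−0.91, −0.03 and −0.77), again with no call. H2-Ab1, a class II chain, was at 282, 324 and 262 and 129, 295 and 128 FPKM (adjusted p = 0.214), and Klrd1, an NK receptor chain, at 7.04, 6.49 and 4.72 and 1.64, 6.48 and 2.16 (adjusted p = 0.222). Without conidia replicate 2 the log2 difference of Pax5 was −2.59 (adjusted p = 0.00834) and that of H2-Ab1 −1.16 (adjusted p = 0.0106). These p-values follow from leaving out the library nearest to saline and are no support for a fall. In that fit 1552 genes passed, 897 of them lower. Summed FPKM of the B cell list was 157 to 295 in saline and 84.6, 211 and 89.1 in conidia replicates 1 to 3.

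Growth and housekeeping lists gave no call, which says little where 0.729% of all genes tested were called. Their medians were −0.42 for 27 cell cycle genes, −0.23 for 22 genes of cholesterol and fatty acid synthesis, 0.19 for 25 proteasome subunits, 0.02 for 80 cytosolic ribosomal proteins and −0.16 for 80 subunits of oxidative phosphorylation. Mki67, a marker of dividing cells, was at 2.71, 2.84 and 2.61 and 1.59, 2.25 and 1.29 FPKM (log2 difference −0.47, adjusted p = 0.127), and Insig1, a brake on sterol synthesis, at 38.3, 31.1 and 37.7 and 21.9, 25.4 and 17.8 (adjusted p = 0.0569). Of the 27 cell cycle genes 10 had all conidia below all saline libraries, against 17.8% of all genes tested. All 25 proteasome subunits had a positive log2 difference, between 0.08 and 0.36.

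**Figure D4:**
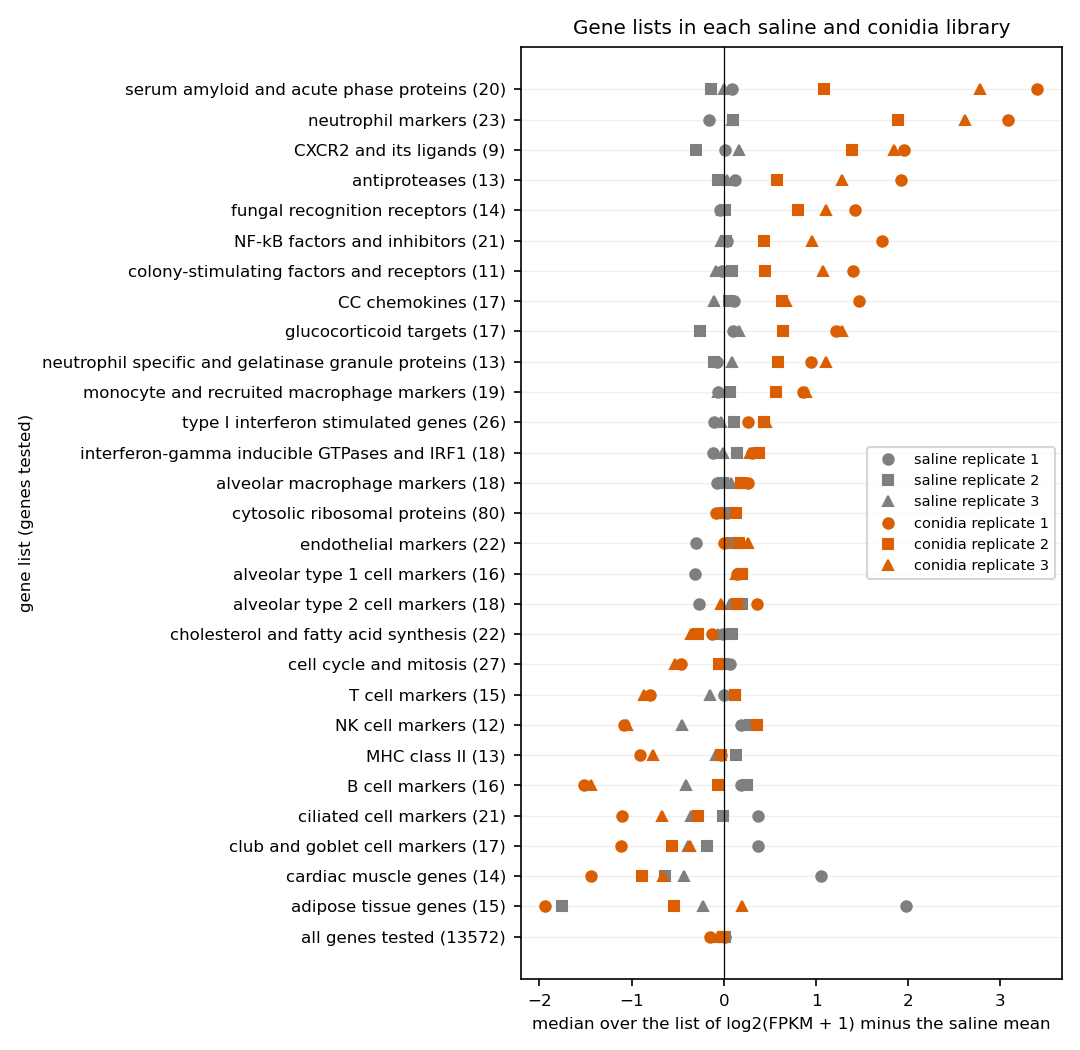
Median over each gene list of log2(FPKM + 1) minus the saline mean (horizontal axis) in each saline (grey) and conidia (orange) library, with the number of genes tested in brackets and the replicate number given by the symbol. Conidia replicate 2 (square) has the smallest deviation of the 3 in the lists at the top and lies at or above the saline mean for T and NK cell markers, and saline replicate 1 (grey circle) is far to the right for cardiac and adipose genes.

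The 2 fungal forms were set side by side for the genes that conidia changed most, and the difference itself, hyphae minus conidia, was tested in the same fit, where 55.4% of all genes tested differed. The members were chosen by their level in the conidia libraries, which this contrast also uses, so no count over them is given. Saa3 was at 47.6, 45.1 and 89.2 FPKM in hyphae replicates 1 to 3 (log2 hyphae minus conidia −4.29, adjusted p = 0.00157). Orm2 was at 0.33, 0.25 and 0.49 FPKM after hyphae, below saline replicates 1 and 3 (hyphae minus conidia −4.51, adjusted p = 9.13e-05). Timp1 (16.2, 16.1 and 21.8 FPKM; −3.0, adjusted p = 0.000293), Il1rn (2.47, 7.45 and 8.93 FPKM; −3.08, adjusted p = 0.00301) and Clec4n (1.97, 4.70 and 2.89 FPKM; −2.23, adjusted p = 0.000179) were likewise lower after hyphae than after conidia. After rescaling the adjusted p-values of these genes lay between 0.000137 (Orm2) and 0.00855 (Il1rn). Their choice by conidia level favours differences in this direction, so the p-values are no independent support.

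Several large rises did not differ between the forms by this test. S100a9 was at 236, 686 and 2073 FPKM after hyphae (−0.15, SE 0.79, adjusted p = 0.889), Tnf at 11.4, 33.3 and 38.4 (0.18, SE 0.61, adjusted p = 0.825) and Ccl20 at 34.04, 30.2 and 44.9 (−0.13, SE 0.69, adjusted p = 0.892). With standard errors of this size differences of 1 log2 unit either way cannot be told from 0. The granule transcripts Camp and Ngp were higher after hyphae. Camp was at 7.39, 35.3 and 206 FPKM (3.80, adjusted p = 0.00752) and Ngp at 40.8, 181 and 639 (2.91, adjusted p = 0.0382). So was Cxcl1, at 97.5, 178 and 420.0 FPKM (2.64, adjusted p = 0.0203). Within the hyphae group replicate 3 was the highest and replicate 1 the lowest for S100a9, Camp, Ngp and Cxcl1.

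**Figure D5:**
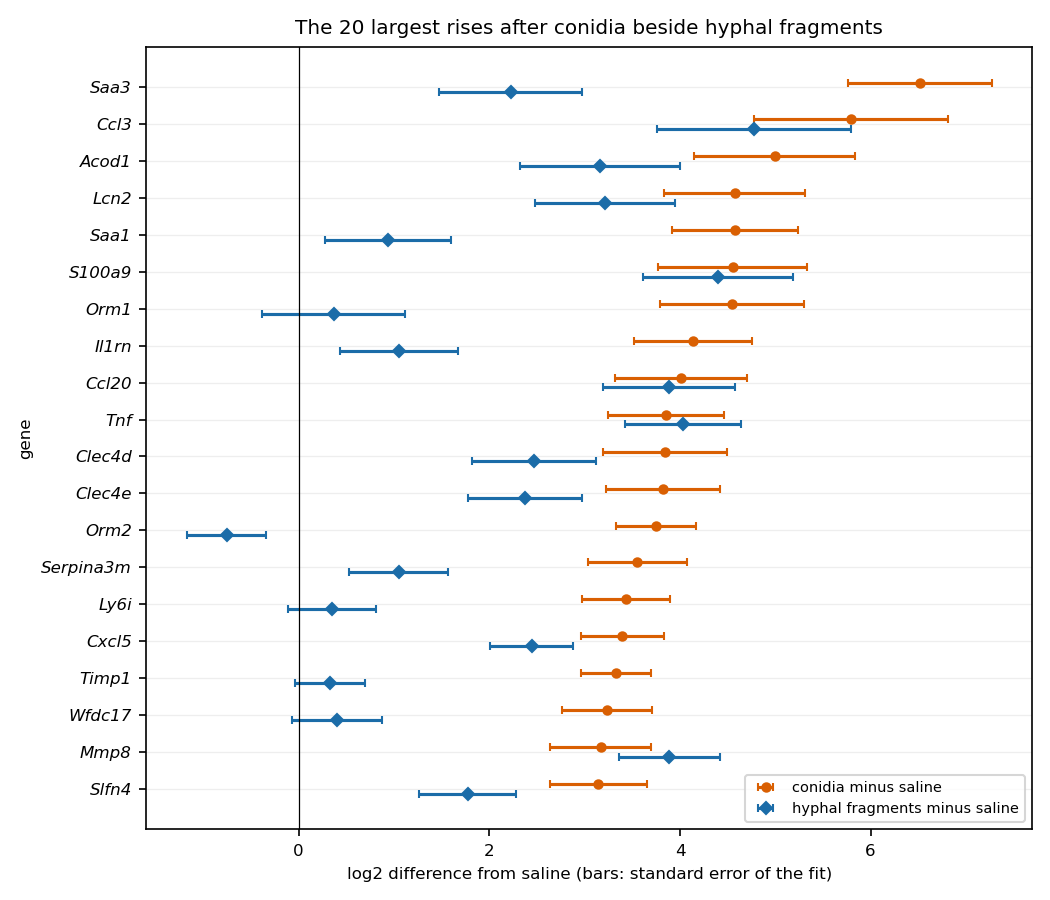
Log2 difference from saline with its standard error from the fit for conidia (orange circles) and hyphal fragments (blue diamonds), for the 20 largest rises after conidia. Both sets of differences use the same 3 saline libraries. The hyphae values of Orm1, Ly6i, Timp1 and Wfdc17 lie below 0.5 and that of Orm2 below 0, whereas those of S100a9, Ccl20, Tnf and Mmp8 lie near or above the conidia values.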

How the data were processed

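Poly(A) RNA of whole mouse lung was sequenced on a BGISEQ instrument, per the labels' protocols. The authors deposited FPKM values with 2 decimals, 1 file per library. The submitters' processing notes list mm9 as genome build and HISAT and Bowtie2 as tools, with no version. What computed the FPKM values is not given there. FPKM keeps no counts, so the depth of a library is unknown and no counting interval is given. FPKM divides by all mapped fragments, so a transcript that takes a large share lowers the values of the others.

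Values were transformed to log2(FPKM + 1), which understates the differences of genes near 0. A gene was tested where 3 or more of the 6 saline and conidia libraries reached 1 FPKM. One limma 3.58.1 model (limma-trend, robust empirical Bayes, R 4.3.3) was fitted to the 9 libraries with 1 coefficient for each group, so the hyphae libraries shared in the estimate of the spread. Tests were two-sided, and Benjamini-Hochberg adjustment ran over all genes tested. Genes with an adjusted p under 0.05 count as called. For 3 libraries against 3 the smallest two-sided p of an exact permutation test is 0.1. The procedure was tested on simulated data. Figures were drawn with matplotlib 3.10.9.

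Named were the 20 largest called rises and the 10 largest called falls with non-overlapping groups, up to 4 called genes of each of 77 lists (where none was called, up to 2 with the smallest p), and a fixed set of airway, cytokine and cell markers. Members and lists were chosen with earlier results of these data known. Another 45 called genes fell outside this rule, and those named are marked as such. A few genes of the rule are not reported here. Lists are described by counts and medians, with no test of a list. Alternatives were other pseudocounts and filters, rescaling by medians of ratios, the 6 libraries alone, array weights, no robust step, a replicate block, and each library left out. Promoter windows came from RefSeq on GRCm38.p6, a build other than that of the files, and none was placed by coordinates of the files.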

Additional observations from a re-analysis of the deposited data

How the results depend on the processing

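The main count was 99 genes (84 higher, 15 lower, 76 by a fold of at least 2). It was within 1.5 times of that, in each direction and by fold, with pseudocounts of 0.1 or 0.5, with a mean of at least 5 FPKM, with the filter over 9 libraries, without the robust step and with the 6 libraries alone (137 calls, of which 63 were among the 99). Without a filter on low values 48 genes were called (39 higher, 9 lower, 33 by fold), 37 of them among the 99, and after rescaling 47 (41, 6 and 38). With array weights, which down-weight uneven libraries, 4981 were called (1875, 3106 and 627), so most calls were then lower after conidia. Leaving out 1 library gave 0 to 1552 calls (0 to 655 higher, 0 to 897 lower, 0 to 602 by fold).

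With the replicate number as a block 60 genes were called (53 higher, 7 lower, 49 by fold), 44 of them among the 99. The labels tie the numbers to no animal or day, and same-numbered libraries deviated from their group means with correlations of −0.31 to 0.43, so the numbers were not taken as pairs.

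All 99 kept their sign wherever they were tested. Among the other named genes 4 changed sign, none of them called, as 1 library was left out: the log2 difference of Lyz2 ranged from −0.38 (without saline replicate 1) to 0.0084 (without conidia replicate 3), that of Hbb-bs from −0.27 (without saline replicate 1) to 1.26, that of Alas2 from −0.28 (without saline replicate 1) to 1.09, and that of Sprr1a from −0.46 (without saline replicate 2; −0.12 without conidia replicate 2) to 0.82. The highest values of the last 3 came without saline replicate 3. The cause was not tested. With 3 libraries a group and no counts, differences of low genes are the least certain.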
